A study of Mus musculus with 33 samples.

Results

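The preoptic area (POA) of female mice was compared between 14 days after bilateral ovariectomy (OVX) and the intact state. The comparison held 11 of the 33 libraries of the study, chosen by region and time from the sample labels, with 6 libraries 14 days after OVX and 5 from intact mice. All mice were WT C57BL/6 females, OVX was done under analgesia in young adults, and the intact females were killed in diestrus. The intact libraries carry the word sham in their titles but intact in a further label and in the methods, and for 1 library the time was taken from its title because its other label held only the number 14. The study also holds POA libraries 4 months after OVX (6) and libraries of the posterior hypothalamus (PH) of the same 3 kinds of mice (16). Neither the labels nor the methods say whether tissue of several mice was pooled, so the *P* values measure the spread between these libraries.

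The POA is the region of the anterior hypothalamus that holds the neurons of body temperature control, the cell bodies that release gonadotropin-releasing hormone (GnRH), and, along the third ventricle, a population of kisspeptin neurons. Kisspeptin, the product of *Kiss1*, is the peptide that drives GnRH neurons. Estradiol raises *Kiss1* expression in the kisspeptin neurons of the rostral periventricular POA and lowers it in those of the arcuate nucleus, which lies in the PH, and OVX removes the ovarian source of estradiol.

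Values below are the deposited normalized expression values on a linear scale, on which a gene without measurable expression still carried a value near 22.1. Testing required a value of 44.1, 2 times this floor, in at least 5 of the 17 POA libraries, which 21361 entries met, 15934 of them protein-coding. Differences are on the log2 scale, 14 days after OVX minus intact, with 1 surrogate variable (SV1) as covariate, and a change in a gene near the floor is understated. The sum of the deposited values differed by at most 1.21 times between the 11 libraries, and SV1 separated the 2 batches that the labels give, of which each held 2 or 3 libraries of either group. In bulk tissue, fewer cells of a type and less RNA per cell cannot be told apart.

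At an adjusted *P* under 0.05, 1 gene was called, 0.00468% of the entries tested (0.00628% of the protein-coding ones). This gene, *Gm28040*, fell by 1.20 on the log2 scale 14 days after OVX. In intact mice its values were 115, 88.1, 171, 191 and 146 (mean ± SD, 142 ± 41.6, n = 5). In the 6 libraries 14 days after OVX they lay at 45.3 to 79.1 (median, 53.7), with a mean of 57.8 ± 12.2. Each library after OVX lay below each intact library, and several lay near the limit of 44.1 for testing. The SE was 0.16, the 95% interval ran from -1.54 to -0.86, and the adjusted *P* was 0.0103 (limma). The difference was -0.93 within batch 1 and -1.46 within batch 2, where neither passed the threshold (adjusted *P*, 0.779 and 0.0993). The call was lost without any one of 5 libraries, intact replicates 1, 3 and 4 and 14-day replicates 4 and 5, with adjusted *P* between 0.0540 and 0.0645 and differences between -1.20 and -1.13. It was also lost without a covariate (adjusted *P* = 0.111), with the replicate number as a block (adjusted *P* = 0.177) and when the 11 libraries were fitted without those of 4 months (adjusted *P* = 0.0833).

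**Figure D1:**
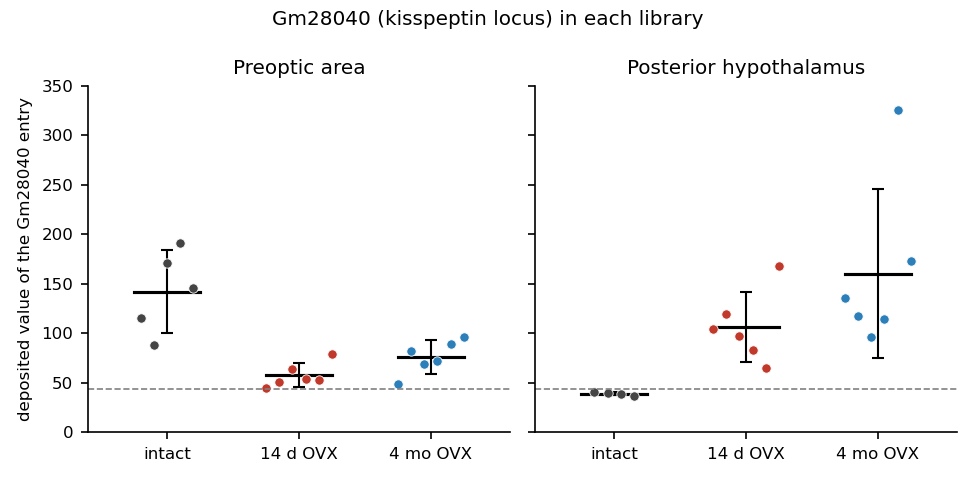
Deposited values of the tested *Gm28040* entry (linear axis) in the libraries of the POA and the PH, by time after OVX. Points are libraries, bars are means with SD, and the dashed line is the limit of 44.1 for testing. The 6 POA libraries 14 days after OVX lay between 45.3 and 79.1 and the 5 intact ones between 88.1 and 191, while in the PH the 14-day libraries lay above the intact ones.

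*Gm28040* is a gene model that overlaps the kisspeptin gene. In the GENCODE M39 annotation of GRCm39, 2 gene models carry this name, at chr1:133237565-133257465 and chr1:133237565-133257639 on the plus strand, with 13 transcripts in all. Both overlap *Golt1a* (chr1:133237538-133250764, plus strand), a gene of vesicle transport, and both span the RefSeq start of *Kiss1*. The exon at chr1:133254948-133255078, which begins beside that start, is part of 9 of the 13 transcripts. The table has 2 entries named *Gm28040*, and which entry stands for which model is not given. The entry that was called is the second. The first lay between 22.7 and 33.4 in the intact POA and between 22.6 and 31.7 after OVX. The entry named *Kiss1* itself lay between 21.95 and 22.01 in all 5 intact libraries and between 21.9 and 43.4 after OVX, and *Golt1a* lay between 24.95 and 39.9 in all 11. None of these other entries reached the limit for testing in any of the 11 libraries, and the authors' assignment of reads to overlapping transcripts could affect all of them.

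The sequence before the RefSeq start of *Kiss1* is shown because the start lies inside *Gm28040* and because the estrogen response element is built from the letters TGACCT and their reverse complement, AGGTCA. The RefSeq window of 300 bases, 250 of them before the start (table of GRCm38.p6), matched GRCm39 chromosome 1 once, at chr1:133254700-133254999. It holds a start codon of *Gm28040* at 133254988, and a coding exon of *Gm28040* also begins at 133254948. A search of both strands found TGACCT at 2 places on the plus strand, beginning 65 and 36 bases before the start, and the capitals mark them.
Kiss1 site 1 (GRCm39, chr1:133254873-133254902, plus strand): gctctctctcttTGACCTaggctctggtga
Kiss1 site 2 (GRCm39, chr1:133254902-133254931, plus strand): aagtacgaactcTGACCTggtcttcattgc
Of 32851 RefSeq windows of the same length, 16.3% held at least 1 copy on either strand and 1.81% held at least 2. Both places are exonic in 4 of the 13 *Gm28040* transcripts and lie upstream of the exon in the others. A match of letters is a description and not a binding site.

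In the PH, the same *Gm28040* entry had the opposite difference. Its values were 37.1 to 40.8 in the 4 intact PH libraries and 65.6 to 168 in the 6 libraries 14 days after OVX, a log2 difference of 1.54 in which all intact values lay under the limit of 44.1. In a fit of all 33 libraries, the POA difference minus the PH difference was -2.75 (SE 0.30, adjusted *P* = 4.14e-06, limma), and *Gm28040* was the 1 entry called of 22606 tested (0.00442%, against 3.05% at an unadjusted *P* under 0.05). At 4 months after OVX its POA values were 48.8 to 96.3 (median, 77.1), of which the highest lay above the lowest intact value, 88.1. The difference between 4 months and 14 days was 0.40 (SE 0.15, adjusted *P* = 0.903), so the 2 times after OVX were not told apart.

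Among the other genes of the kisspeptin and GnRH system, none was called. The list held 13 genes, of which 11 were tested, and 1, *Gm28040*, passed at an unadjusted *P* under 0.05. Of all protein-coding genes 3.93% passed with lower values and 2.57% with higher ones. *Tac2*, which encodes neurokinin B, had values of 1006, 995, 1251, 1400.0 and 1387 in intact mice. After OVX they lay at 849.5 to 1200.0 (median, 946), a log2 difference of -0.29 (SE 0.14, adjusted *P* = 0.807). The groups overlapped, with 4 of 6 libraries after OVX below all intact ones, and the difference was -0.0033 within batch 1 and -0.53 within batch 2. *Pdyn*, the precursor of dynorphin, had a log2 difference of -0.37 (SE 0.25; -0.72 and -0.11 within the batches), with intact values of 1798, 2026, 1149, 1274 and 1645. *Tac2* differed by 0.58 in the PH, and its POA minus PH difference of -0.88 was not called. *Gnrh1* lay at 79.8, 68.2, 145, 99.95 and 155 in intact mice and at 72.3 to 182 (median, 139.8) after OVX, which overlap over most of their range (log2 difference 0.35, 95% interval -0.54 to 1.25), and the difference was 0.91 within batch 1 and -0.088 within batch 2. The kisspeptin receptor *Kiss1r* and the neurokinin B receptor *Tacr3* had log2 differences of 0.023 and -0.03, whose signs changed with the covariate chosen.

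No sex steroid receptor was called. Of the 5, 1, *Pgr*, passed at an unadjusted *P* under 0.05 with a negative difference, against 3.93% of all protein-coding genes. The progesterone receptor *Pgr*, a classic estrogen-induced gene of the hypothalamus, had the smallest *P* of the 5. Its values were 2181, 2069, 1772, 1849 and 1853 in intact mice and 1269 to 2162 (median, 1917) after OVX, with a log2 difference of -0.16 (SE 0.062, adjusted *P* = 0.8) and groups that overlapped. It was -5.64e-05 within batch 1, -0.24 within batch 2 and -0.083 without 14-day replicate 6. The estrogen receptors *Esr1* and *Esr2* and the membrane receptor *Gper1* had log2 differences of 0.11, 0.19 and 0.29, none of them called. For *Esr1*, values were 924, 687, 1138, 800.5 and 1128 in intact mice and 502 to 1412 (median, 1045) after OVX. The lowest of these, 502, was that of 14-day replicate 6, and within batch 2, which holds this library, the difference of *Esr1* was -0.18.

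The neuropeptide genes of the POA were described in the same way. Of 24 tested, 2 passed at an unadjusted *P* under 0.05, *Vgf* and *Cartpt*, both with lower values after OVX, and none was called. Of all protein-coding genes 3.93% passed with lower values and 2.57% with higher ones. *Vgf*, the precursor of secreted neuronal peptides, had values of 6673, 5654, 11230.1, 9574 and 10409.8 in intact mice and 5115 to 9212 (median, 5986) after OVX (log2 difference -0.31, SE 0.10, adjusted *P* = 0.8). *Vgf* was called when the component seen in the floor values and the batch replaced SV1 (-0.37, adjusted *P* = 0.0468). *Cartpt*, the precursor of the CART peptide, had a log2 difference of -0.37 (SE 0.18) in the POA. Of the 15 tested genes that mark POA neurons of temperature control, 0 passed at an unadjusted *P* under 0.05 by limma, and their median difference was -0.015, against -0.014 over all protein-coding genes.

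Across protein-coding genes, the differences at 14 days were small. At an unadjusted *P* under 0.05, 410 were higher (2.57%) and 626 lower (3.93%) after OVX, while over all entries the shares were 2.83% and 3.30%. The log2 difference was above 0 for 44.0% and below 0 for 56.0% of the protein-coding genes. The 5 and 6 libraries did not overlap for 25 genes that were higher (0.157%) and 25 that were lower (0.157%). The second smallest adjusted *P* was 0.341, so the 19 genes named next beside *Gm28040* describe the order of the *P* values and are not calls.

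Ranked by *P*, the first 10 protein-coding genes with higher values after OVX were mixed in function. *1700012B09Rik* came first, with intact values of 172, 162, 169, 131 and 129.9 and values of 206 to 276 (median, 228) after OVX (log2 difference 0.62, SE 0.12, adjusted *P* = 0.341). *Gca*, which encodes the calcium-binding protein grancalcin, had values of 774, 812, 683, 757 and 657 in intact mice and 931 to 1048 (median, 1018) after OVX (log2 difference 0.43, SE 0.084). For both genes each library after OVX lay above each intact one. *Gca* was called with SV1 and batch together (0.48, adjusted *P* = 0.0147) and with the floor component and batch (0.46, adjusted *P* = 0.0171). *Btc*, a ligand of the epidermal growth factor receptor, also had groups that did not overlap, with 80.3, 73.7, 66.8, 64.6 and 63.4 in intact mice and 83.3 to 108 (median, 92.8) after OVX (log2 difference 0.44). The other 7 were *Trim30a*, *Sptbn5*, *Zc3hav1*, *Lrriq1*, *Krt90*, *C4b* and *Bola2*, with log2 differences between 0.34 and 0.79 and groups that overlapped.

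Of the 10 with lower values after OVX, *Gm28040* was followed by *Fa2h*, the fatty acid hydroxylase of myelin lipids. *Fa2h* had values of 1826, 1857, 2202, 2326 and 2595 in intact mice and 1309 to 1797 (median, 1675) after OVX, without overlap (log2 difference -0.39, SE 0.078, adjusted *P* = 0.349). *Rhou*, a small GTPase, had values of 2505, 2448, 2392, 2516 and 2599.5 in intact mice and 1973 to 2306 (median, 2027) after OVX. *Ctdnep1*, a phosphatase of the nuclear envelope, and the zinc finger gene *Zfp46* had log2 differences of -0.23 and -0.24. The groups did not overlap for *Rhou*, *Ctdnep1* and *Zfp46*, although their differences were small. *Tfrc*, the transferrin receptor, had a log2 difference of -0.34 (SE 0.077), and *Grik5*, a kainate receptor subunit, one of -0.19 (SE 0.047). *Isoc2b*, *Dclre1b* and *Hnrnpd* completed the 10, with log2 differences of -0.49, -0.37 and -0.23.

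**Figure D2:**
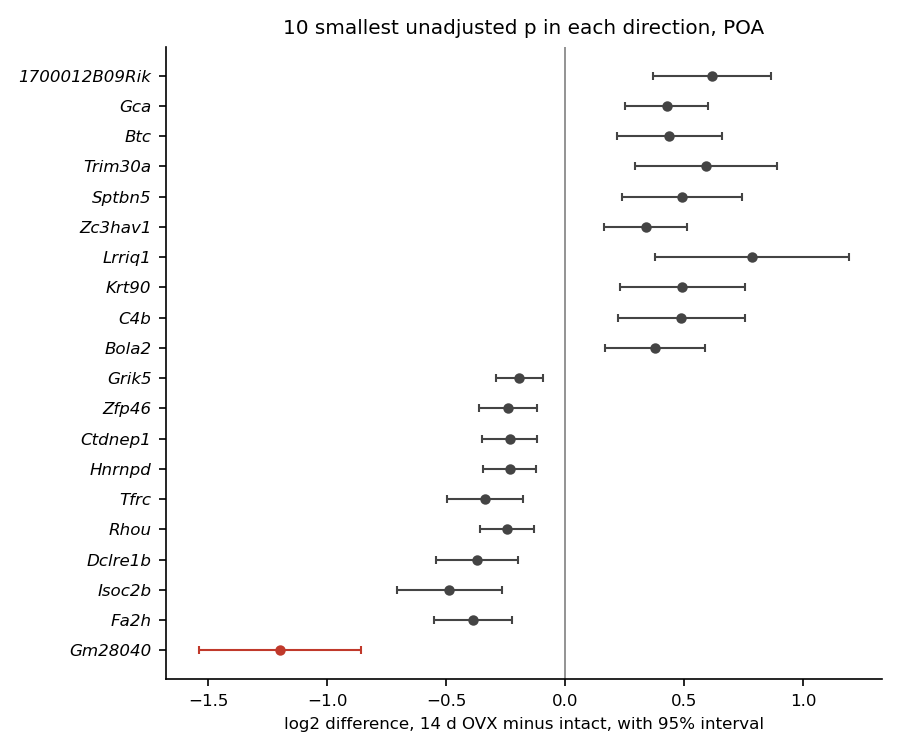
Log2 differences in the POA, 14 days after OVX minus intact, with 95% intervals, for the 10 protein-coding genes with the smallest unadjusted *P* in each direction. *Gm28040* (red) was the 1 gene called, and the other 19 had adjusted *P* of at least 0.341.

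Genes of innate immunity had differences that lay mostly above 0, though none was called. Of 47 interferon-stimulated genes tested, 46 had a log2 difference above 0 and 10 passed at an unadjusted *P* under 0.05, all with higher values after OVX (background, 2.57%). The median was 0.25, against -0.014 over all protein-coding genes. It was 0.09 within batch 1 and 0.34 within batch 2, and 0.15 without the 2 libraries highest in thalamic markers. *Trim30a*, an interferon-induced regulator of inflammatory signaling, had values of 146, 126, 174, 159 and 125 in intact mice and 171 to 315 (median, 205) after OVX (log2 difference 0.59, SE 0.14, adjusted *P* = 0.567). *Psmb8*, an immunoproteasome subunit that shapes peptides for MHC class I, had values of 107, 128, 169, 129.8 and 156 in intact mice and 133 to 326 (median, 167) after OVX (log2 difference 0.54, SE 0.14). The highest value of each of these 2 genes was that of 14-day replicate 6, and the groups overlapped. The antiviral zinc finger gene *Zc3hav1* had a log2 difference of 0.34 (SE 0.084), with 4 of 6 libraries after OVX above all intact ones. The largest difference of the list was that of the GTPase gene *Igtp*, 0.63, with a 95% interval from -0.32 to 1.58, and it was 0.014 within batch 1, 0.98 within batch 2 and 0.38 without 14-day replicate 6.

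Interferons act through a promoter element whose core reads GAAA, any 2 bases and GAAA again, and short stretches that hold it are shown for 3 members that had positive differences. This core was searched on both strands of the RefSeq windows (GRCm38.p6), and capitals mark the match, which reads TTTC, 2 bases and TTTC where it lies on the other strand.
Trim30a (chr7:104465210-104465239, minus strand): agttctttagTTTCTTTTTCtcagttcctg
Rsad2 (chr12:26456553-26456582, minus strand): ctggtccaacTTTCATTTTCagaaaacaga
Igtp (chr11:58199512-58199541, plus strand): tctaggaactGAAACTGAAAgctgttcggg
The matches begin 36, 120 and 34 bases before the start of *Trim30a*, *Rsad2* and *Igtp*. Of the 33 tested members with a RefSeq window, 18 held the letters (54.5%), against 3.99% of all 27025 genes with a window. The median log2 difference was 0.30 for the 18 and 0.19 for the other 15, among them *Psmb8* and *Zc3hav1*. These shares describe the list, which was chosen for its response to interferon.

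The related immune lists lay in the same direction. All 14 tested MHC class I genes had a log2 difference above 0, with a median of 0.24. It was 0.050 within batch 1, 0.35 within batch 2, 0.086 without the 2 libraries highest in thalamic markers and 0.14 without 14-day replicate 6. Of the 14, 1, *H2-D1*, passed at an unadjusted *P* under 0.05 with higher values (background, 2.57%). Of 7 MHC class II genes 6 lay above 0, with a median of 0.34 that was -0.08 within batch 1, 0.65 within batch 2 and -0.02 without the 2 libraries highest in thalamic markers. Of 21 complement genes 19 lay above 0, with a median of 0.17. This median was 0.050 within batch 1, 0.21 within batch 2 and 0.048 without the 2 libraries highest in thalamic markers. *C4b* and *C1qa* passed at an unadjusted *P* under 0.05 with higher values (background, 2.57%). *C4b*, a complement component, had values of 1156, 1249, 2271, 1357 and 1499.8 in intact mice and 1255 to 3054 (median, 1855) after OVX (log2 difference 0.49, SE 0.13, adjusted *P* = 0.675). The groups overlapped for *C4b*, and intact replicate 3 lay above 4 of the 6 libraries after OVX. At 4 months, which was compared with the same intact libraries, the difference of *C4b* was 0.98.

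Markers of microglia, the macrophages of brain tissue, lay slightly above 0. Of 22 tested, 21 had a positive difference (median, 0.13; 0.10 and 0.12 within the batches), 5 passed at an unadjusted *P* under 0.05 with higher values after OVX (background, 2.57%) and 1, *Fcrls*, with lower ones (background, 3.93%). *Ctss*, a lysosomal protease, had values of 3107, 2603, 2818, 2278 and 2612 in intact mice and 2795 to 3652 (median, 3282) after OVX (log2 difference 0.24, SE 0.072, adjusted *P* = 0.732). *Gpr34*, a lysophospholipid receptor of microglia, had a log2 difference of 0.26 (SE 0.089). *Clec7a*, a receptor of activated microglia, belongs to a separate list of 19 tested genes. Of these, 13 lay above 0 and 6 below (median, 0.032; -0.015 within batch 1). *Clec7a* was the 1 gene of the 19 that did not overlap between the groups (background, 0.157%). It had values of 58.1, 65.3, 46.4, 54.5 and 55.4 in intact mice and 68.7 to 90.03 (median, 78.8) after OVX (log2 difference 0.49, SE 0.15, adjusted *P* = 0.732). Its values were close to the floor. The pan-microglial gene *Aif1* had a log2 difference of 0.21 and the mitochondrial outer membrane gene *Tspo* one of 0.32, and neither was called (adjusted *P*, 0.813 and 0.8). The summed value of the 22 markers was 24445 to 26552 in intact mice and 26668 to 29666 after OVX, without overlap. The highest intact sum and the lowest after OVX lay close together. None of the 22 markers was without overlap on its own, and the sums of all other lists overlapped.

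Of the glial lists, that of oligodendrocytes lay below 0 and that of astrocytes around it. Of 16 tested oligodendrocyte genes 15 had a negative difference (median, -0.14), and 6 passed at an unadjusted *P* under 0.05 with lower values after OVX (background, 3.93%). Beside *Fa2h* these were *Mog*, *Cldn11*, *Tspan2*, *Mal* and *Mag*, all of them genes of the myelin sheath. *Mog* had values of 3364, 2814, 3348, 3336 and 4116 in intact mice and 2455 to 3159.9 (median, 2707) after OVX (log2 difference -0.29, SE 0.084, adjusted *P* = 0.732), and the difference was -0.086 within batch 1 and -0.45 within batch 2. The median of the list was 0.03 within batch 1 and -0.27 within batch 2. Of 18 astrocyte genes 9 lay above 0. *Ncan* and *Glul* passed at an unadjusted *P* under 0.05 with lower values (background, 3.93%) and *S100b* with higher ones (background, 2.57%). Of the 18, 1, *S100b*, a calcium-binding protein, did not overlap between the groups (background, 0.157%). It had values of 6074, 6269, 6135, 5806 and 6162 in intact mice and 6406 to 7885 (median, 7035) after OVX (log2 difference 0.19). *Gfap*, the intermediate filament of reactive astrocytes, had values of 8528, 7575, 9878, 8509 and 8567 in intact mice and 6594 to 16317 (median, 7869) after OVX. The highest, 16317, was again that of 14-day replicate 6, and without this library the difference of *Gfap*, 0.078, became -0.098.

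**Figure D3:**
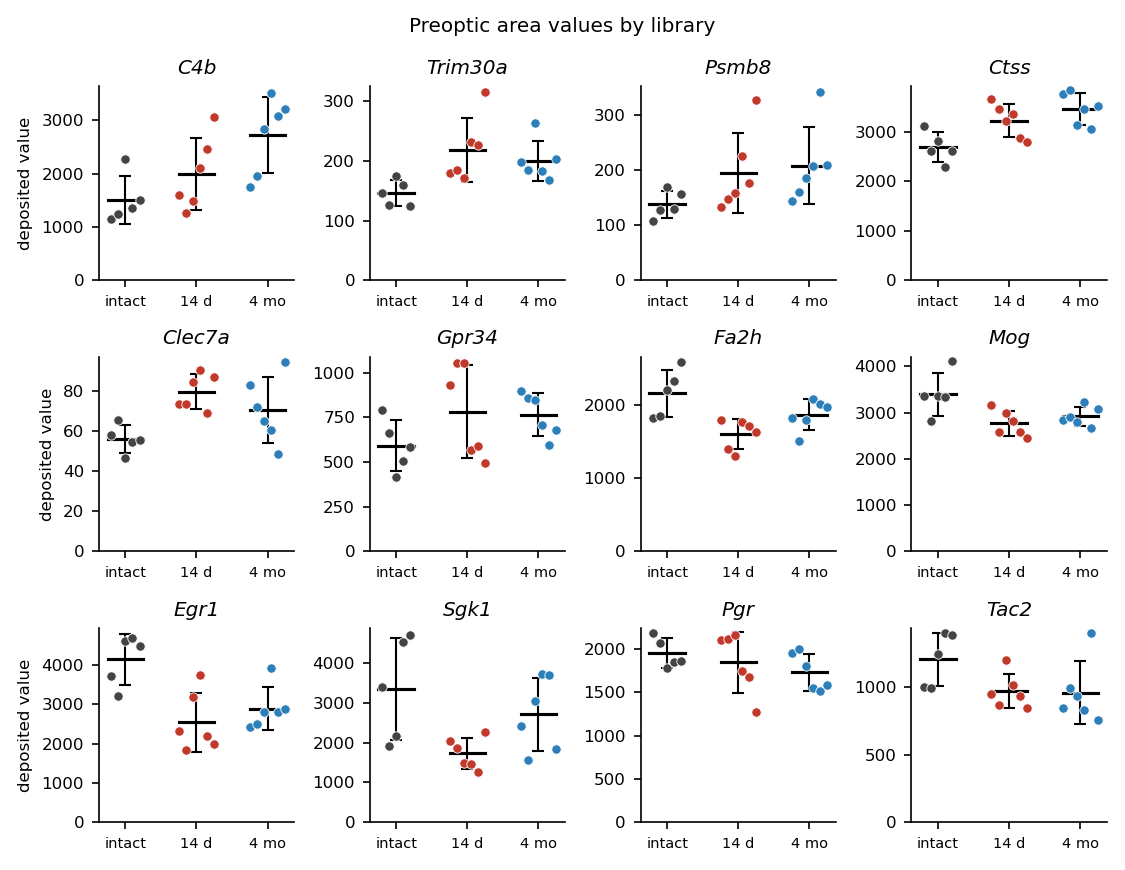
Deposited values (linear axes from 0) of 12 genes in the POA libraries of intact mice and of mice 14 days and 4 months after OVX. Points are libraries and bars are means with SD. The groups at 14 days and in intact mice did not overlap for *Clec7a* and *Fa2h*, and overlapped for the other 10 genes.

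Activity-regulated and stress-hormone-regulated transcripts lay mostly below 0. Of 24 immediate early genes 18 had a negative difference (background, 56.0%) with a median of -0.18, and 5 passed at an unadjusted *P* under 0.05 with lower values after OVX (background, 3.93%), *Egr1*, *Egr2*, *Fosb*, *Junb* and *Nr4a1*. *Egr1*, a transcription factor induced by neuronal activity, had values of 3720.2, 3219, 4609, 4690.2 and 4496 in intact mice and 1847 to 3749 (median, 2253) after OVX (log2 difference -0.71, SE 0.17, adjusted *P* = 0.659). Of the 6 libraries, 5 lay below all intact ones. The median of the list was -0.01 within batch 1 and -0.28 within batch 2. Of 21 glucocorticoid-induced genes 17 lay below 0 (background, 56.0%), with a median of -0.13 that was -0.015 within batch 1 and -0.24 within batch 2. At an unadjusted *P* under 0.05, 4 passed with lower values (background, 3.93%), *Per1*, *Gpd1*, *Klf9* and *Sgk1*. *Lcn2* (0.46) passed with higher ones (background, 2.57%). *Sgk1*, a serum- and glucocorticoid-induced kinase, had values of 3395, 1921, 2167, 4524 and 4696 in intact mice and 1259 to 2262 (median, 1679.9) after OVX (log2 difference -0.85, SE 0.29, adjusted *P* = 0.8). Its intact values spread from 1921 to 4696, and the groups overlapped.

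A comparison of the 2 times after OVX in the POA called 6 entries, 0.0281% of those tested. *Btg2*, an immediate early inhibitor of proliferation, had values of 378 to 532 at 14 days and 774 to 962 at 4 months (log2 difference 0.95, SE 0.11, adjusted *P* = 0.000592). The phosphatase gene *Dusp1* (0.69), the neuronal transcription factor gene *Npas4* (0.91), *Tob1* (0.32) and *Depp1* (0.84) were also higher at 4 months, and the long noncoding RNA *9630013A20Rik* (-0.86) was lower. With the replicate number as a block, 7 were called, *Nr4a1* and *Junb* joining the list and *Tob1* leaving it (adjusted *P* = 0.0797). Without a covariate *Btg2* alone was called, and the other 5 had adjusted *P* of at least 0.382. Without any one library, 3 to 7 were called, and without 14-day replicate 2 or without 14-day replicate 3 the calls were *Btg2*, *Dusp1* and *Npas4*.

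The differences of transmitter receptors and general neuronal genes were small. Of 38 receptor genes for GABA and glutamate 28 lay below 0 (background, 56.0%), with a median of -0.053 that was 0.00041 without 14-day replicate 6, and 6 passed at an unadjusted *P* under 0.05 with lower values after OVX (background, 3.93%), with *Grik5* first. Of 14 general neuronal genes 12 lay below 0, with a median of -0.061 that was 0.083 within batch 1, -0.16 within batch 2 and 0.024 without 14-day replicate 6. The summed value of these 14 was 288271 in that library and 351541 to 411231 in the other 10. *Rbfox3*, which encodes the neuronal marker NeuN, had values of 4894, 4954, 5412, 5689 and 5539 in intact mice and 4148 to 5409.8 (median, 4623) after OVX (log2 difference -0.17, adjusted *P* = 0.8). The matrix genes of perineuronal nets *Ncan* and *Hapln4* both had a log2 difference of -0.23. In the prostaglandin and fever list, 1 of 17 genes, *Pla2g4a*, passed at an unadjusted *P* under 0.05 with higher values (background, 2.57%). *Pla2g4a*, the phospholipase that frees arachidonic acid, had a difference of 0.39 (SE 0.16, adjusted *P* = 0.8, limma). *Ptgs2*, an inducible prostaglandin synthase, had a difference of 0.24 at 14 days and 0.78 at 4 months against the same intact libraries. Without 14-day replicate 6 the 14-day differences were 0.038 for *Ptgs2* and 0.24 for *Pla2g4a*, and *Ptgs2* was 0.029 within batch 1 and 0.42 within batch 2.

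**Figure D4:**
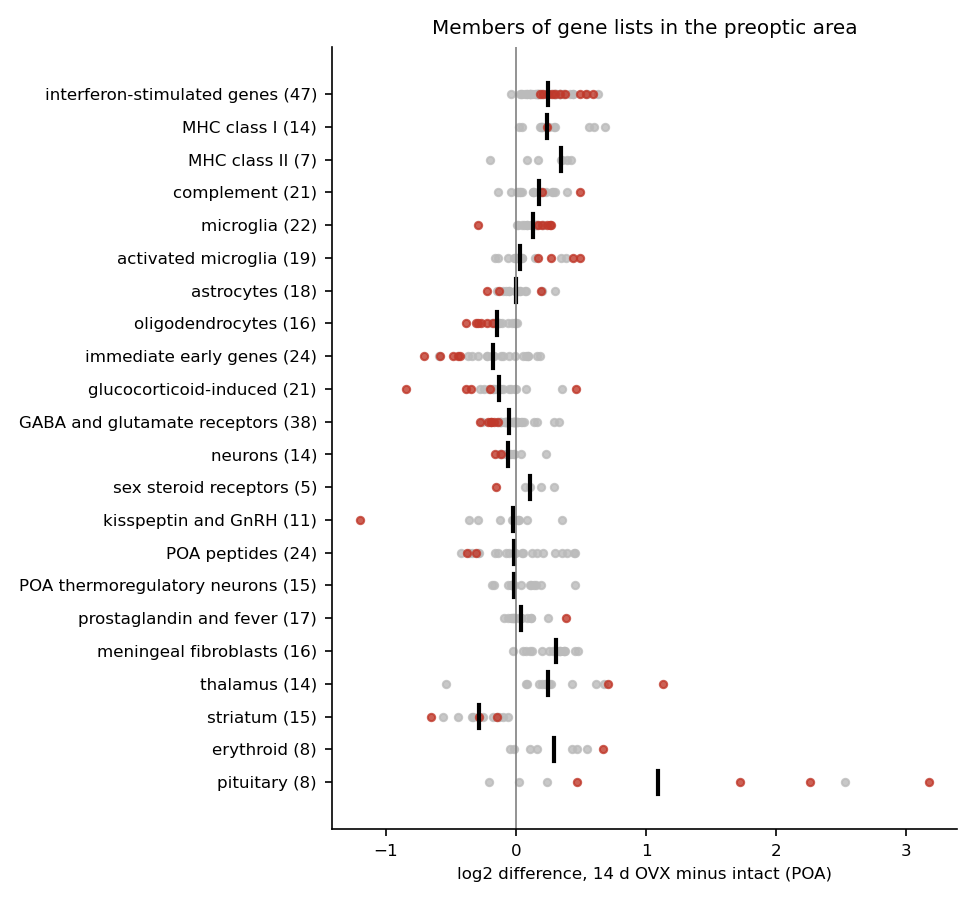
Log2 differences in the POA, 14 days after OVX minus intact, of the tested members of 22 gene lists (number tested in brackets). Points are genes, red at an unadjusted *P* under 0.05, and the black ticks are medians. The interferon-stimulated list lay mostly above 0 and the oligodendrocyte and striatal lists below it, and the widest spread was that of the pituitary genes.

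Marker genes of other tissues also differed between libraries. Markers of the POA itself were present, since 17 of 18 regional genes were tested and 1 of the 18 lay under the limit of 44.1 in each library. Genes of the pituitary gland, which hangs below the hypothalamus, varied most. *Gh*, growth hormone, had values of 21.9, 290.3, 21.9, 37.2 and 26.5 in intact mice and 21.8 to 3634 (median, 557) after OVX (log2 difference 3.17, adjusted *P* = 0.8). *Cga*, the shared subunit of pituitary glycoprotein hormones, had values of 24.4, 63.1, 23.5, 24.4 and 23.6 in intact mice and 31.3 to 290.5 (median, 102) after OVX. The median difference of the 8 tested pituitary genes was 1.09. It was 0.50 and 0.63 within the batches, where the filter was set anew and *Cga* was not tested in batch 2. The summed value of these 8 was 552 to 2463 in intact mice, highest in replicate 2, and 719.5 to 10961 after OVX, highest in replicates 1 and 4. With the mean of these genes as a further covariate, the difference of *Gm28040* was -0.89 and was not called (adjusted *P* = 0.664). Of all 11 listed pituitary genes, between 4 and 8 lay under the limit in the intact libraries and between 1 and 8 in those after OVX. The part of such tissue in the result for *Gm28040* was not tested.

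Markers of the thalamus, which lies behind and above the POA, had a median difference of 0.24 that was -0.053 within batch 1, 0.56 within batch 2 and 0.037 without 14-day replicate 6, with *Tnnt1* at 1.13 (SE 0.43) and *Gbx2* at 0.71 (SE 0.31). Their summed value was 46729 to 91482 in intact mice and 52745 to 108203 after OVX, highest in intact replicate 2 and in 14-day replicate 6. The same 2 libraries also held the lowest intact value of *Gm28040* (88.1) and its highest 14-day value (79.1). Leaving both out therefore widened its difference, to -1.39 (adjusted *P* = 0.00691, limma). With SV1 and the thalamic markers as covariates it was -1.16 (adjusted *P* = 0.0415, limma). All 15 striatal markers lay below 0, with a median of -0.28 (-0.45 and -0.07 within the batches). Their summed value was 23559 to 31019 in intact mice and 19794 to 26915 after OVX. Of 8 tested genes of red blood cells 6 lay above 0 (median, 0.29). The sum of these 8 ran from 13095 to 22789.7 in intact mice and from 15718 to 22791 after OVX. The part of these tissues in the differences of the immune, myelin and neuronal lists was not tested.

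**Figure D5:**
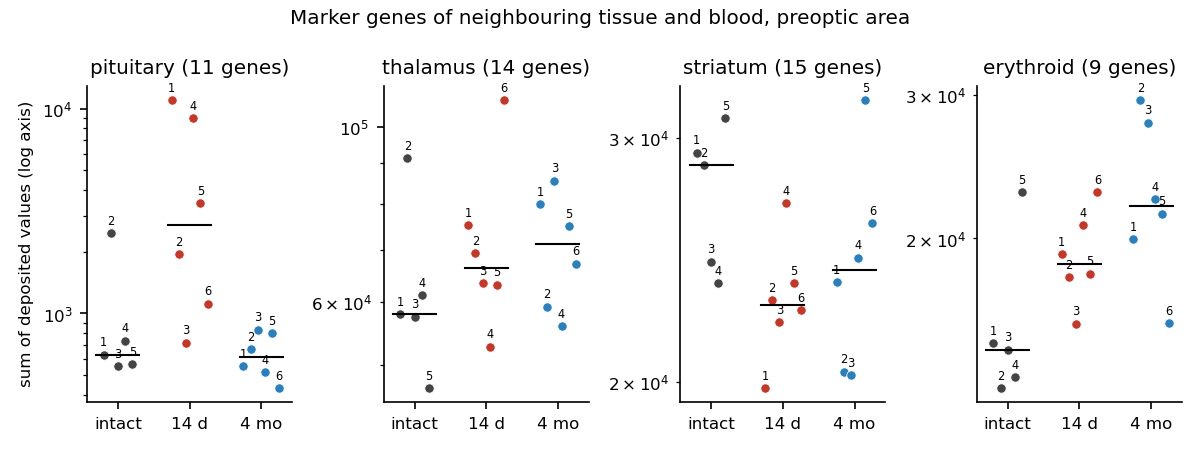
Summed deposited values (log axis) of the tested marker genes of pituitary, thalamus, striatum and red blood cells in each POA library, by time after OVX. Panel titles count the listed genes that have an entry, of which those tested were summed. Points are libraries with their replicate numbers and lines are medians. The pituitary sum was highest in 14-day replicates 1 and 4 and the thalamic sum in 14-day replicate 6 and intact replicate 2.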

How the data were processed

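Poly(A) RNA-seq libraries of dissected POA and PH were compared by region and time after OVX as the sample labels give them. Per the labels and methods, the authors quantified stranded paired-end reads with kallisto against the mouse transcriptome (mm39) and normalized them with DESeq2. The deposited table holds these normalized signal values on a linear scale, and the step that set their floor is not given in the sources used here. The values are not whole numbers and no read counts could be recovered, so depth is unknown, no counting interval is given, and limma took the place of a count test.

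Of 42824 entries, 1259 carried no gene name and were not used, and 972 of the 41565 named ones had no symbol in GENCODE M39. Entries were kept at 2 times the floor of 22.1 (44.1) in at least 5 POA libraries. The log2 values of all 17 POA libraries, with no pseudocount, were fitted with limma 3.58.1 (R 4.3.3, statmod 1.5.0; trend and robust estimates) with SV1, from 5 rounds of iteratively reweighted surrogate variable analysis, and Benjamini-Hochberg adjustment over all entries tested. The fit was tested on simulated data with changes larger than most differences described here. That test does not cover small differences, such as the median absolute log2 difference of the protein-coding genes, 0.068. Figures were drawn with matplotlib 3.10.9 (Python 3.11.15, numpy 2.4.6).

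Named genes were those called, the 10 protein-coding genes with the smallest *P* in each direction, the tested kisspeptin, GnRH and steroid receptor genes, those of the peptide and temperature lists at an unadjusted *P* under 0.05, the first 2 by *P* and the one with the largest difference in each other list, and genes the study names, of which some are not reported here. Further members at an unadjusted *P* under 0.05, and the other genes called between 4 months and 14 days, were named after their values were seen. The members and lists were chosen with earlier results of these data known, and lists are described by counts and medians without a test. Replicate numbers of the 14-day and 4-month libraries deviated together (correlations between 0.19 and 0.32 for all 6 pairs, which also share their batch), so the fit with the replicate block is given beside that comparison. Alternatives changed the covariate, the libraries, the filter, the log scale, the variance model and the threshold. Fits on fewer libraries set the filter anew on those libraries, so a list could hold fewer of its tested members. Those on thalamic and pituitary markers, and on 1 PH library, were chosen after seeing the data.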

Additional observations from a re-analysis of the deposited data

Results flagged for a closer look

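Single libraries stood far from the rest of their group in 9 of 138 groups of values looked at, where chance gives about 1 in 20. The measure is the gap of the extreme library to its nearest neighbor as a share of the group's range, both on the log2 scale. Among the intact libraries, replicate 2 was high for *Cga* (0.962), *Gh* (0.794) and the sum of the pituitary markers (0.806), replicate 4 was high for *Ctdnep1* (0.811), and replicate 5 was high for *Hbb-bt* (0.75) and the sum of the markers of red blood cells (0.772). Among the libraries 14 days after OVX, replicate 6 was low for *Esr1* (0.665) and high for *Gfap* (0.656) and *Pla2g4a* (0.741).

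The 14-day difference of *Gm28040* in the POA minus that in the PH was -2.75 on the log2 scale, with lower values after OVX in all 6 POA libraries and higher values in all 6 PH libraries than in any intact library of the same region.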

How the results depend on the processing

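*Gm28040* kept its direction under every alternative run. The count of 1 gene called at 14 days became 0 without a covariate, in the 11 libraries alone, within batch 1, within batch 2 and with SV1 and pituitary markers, 2 with SV1 and batch, and 4 with the floor component and batch, and was 0 to 1 when 1 library was left out. With the replicate number as a block and SV1 it was 0 (*Gm28040*, -1.29; adjusted *P* = 0.177). The correlations of same-numbered intact and 14-day libraries were 0.39, 0.33, -0.26, 0.28 and 0.37. The pair of number 3 lies across the batches and the others share theirs. Batch was not removed, so these values cannot decide whether the numbers pair the libraries. The count of 6 between 4 months and 14 days became 1 without a covariate, 7 with the block, and 3 to 7 without 1 library. The count of 1 for the difference between POA and PH was 1 in every setting run, the block included.

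Of 62 genes of the text, 57 never changed sign. Many of the 62 were named by their *P* or difference in these libraries, and the settings refitted the same libraries or parts of them. A kept sign is therefore not a separate test. Values as small as that of *Pgr* in batch 1, -5.64e-05, counted as unchanged. *Kiss1r* was -0.011 with batch, -0.059 without a covariate, -0.0072 with the floor component and batch, -0.16 in batch 1 and -0.11 with pituitary markers. *Tacr3* was 0.021 without a covariate, 0.26 in batch 1, 0.027 with thalamic and 0.065 with pituitary markers. *Esr1* was -0.035 with SV1 and batch, -0.0045 with the floor component and batch and -0.18 in batch 2. *Gfap* was -0.071 in batch 1 and -0.12 without the 2 libraries highest in thalamic markers. *Gnrh1* was -0.088 in batch 2. Without 1 library, *Esr1* ran from -0.028 to 0.37, *Gfap* from -0.098 to 0.21, *Kiss1r* from -0.014 to 0.081 and *Tacr3* from -0.11 to 0.013. The cause was not tested. The unknown depth limits what can be said of genes near the floor, *Kiss1* among them.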

Other observations

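The proteasome genes lay on both sides of 0. Of 39 tested, 33 lay below 0 and 6 above, with a median of -0.04 that was 0.0057 without 14-day replicate 6. At an unadjusted *P* under 0.05, 3 passed with higher values after OVX (background, 2.57%). These were *Psmb8*, *Psmb9* (0.49, SE 0.20) and *Psmb10* (0.27, SE 0.10), the catalytic subunits of the immunoproteasome. *Psma3* passed with lower values (background, 3.93%). *Psmc4*, with a log2 difference of -0.09, had lower values without overlap (background, 0.157%). *Psmb10* had values of 668, 466, 869, 953 and 827 in intact mice and 685 to 1055 (median, 803) after OVX, and the groups overlapped. None of the 39 was called.

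Further lists were described in the same way. Of 19 genes of activated microglia 13 lay above 0 (median 0.032). *Clec7a*, *Tyrobp*, *Lyz2* and *Csf1* passed at an unadjusted *P* under 0.05 with higher values (background, 2.57%). Of 23 steroid-responsive hypothalamic genes 15 lay below 0 (median -0.033), with *Pgr* and *Cartpt* passing with negative differences (background, 3.93%). Of 27 cholesterol synthesis genes, 0 passed by limma (median -0.016). Of 16 genes of fibroblasts and meninges 15 lay above 0 (median 0.30), which was -0.02 within batch 1, 0.55 within batch 2 and -0.08 without the 2 libraries highest in thalamic markers.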
